A study of Mus musculus with 11 samples.

Results

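The genes described here encode the machinery that fuses a secretory vesicle with the plasma membrane: SNARE proteins, synaptotagmins, and the proteins that dock, prime and clamp vesicles. Members were chosen by symbol, as genes of 11 families (Syt, Stx, Stxbp, Vamp, Snap, Cplx, Unc13, Rims, Syn1 to Syn3, Sv2 and Cadps) with a total of at least 15 counts over the 11 libraries. Of 38283 genes in the table, 73 carried such a symbol. Of these, 8 fell below the minimum count and 65 were members. The largest families were the synaptotagmins and the syntaxins, with 15 members each. Snap91, a clathrin adaptor, and Vamp7-ps, a processed pseudogene, belong by symbol alone. Vamp7 itself is listed at 0, so reads of that gene and its copy cannot be told apart.

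RNA was sequenced from mouse duodenal epithelium that had been dissociated and sorted by flow cytometry, from animals kept on standard chow. Cells of the Neurod1-cre-eYFP strain carry a yellow fluorescent protein switched on by a Cre recombinase that is driven by Neurod1, the gene of a transcription factor of enteroendocrine cells. Such a reporter also stays on in descendants of cells that once expressed Neurod1. In the GluVenus strain the fluorescent protein Venus reports the proglucagon gene of L cells. The groups were NeuroD1 positive (3 libraries), NeuroD1 negative (3), Glu positive (3) and Glu negative (2). Negative cells were sorted from the same tissue in similar number and lacked the reporter's signal. Ages, sexes and any pooling of animals are not stated. Libraries are named as labelled, with the number at the end. Whether such a number stands for an animal is not stated either, and p-values therefore describe variation among libraries, which may be technical.

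Fusion of a vesicle is driven by a bundle of helices that joins a vesicle SNARE (a VAMP) with a syntaxin and a SNAP protein on the target membrane. Sec1/Munc18 proteins (the Stxbp genes) hold syntaxins and guide assembly, Unc13 and Cadps proteins prime vesicles, complexins clamp the partly assembled bundle, and synaptotagmins sense calcium and trigger release. In neurons and in endocrine cells the set with Snap25, Stx1a and Vamp2 serves regulated release. Snap23, Stx3, Stx4 and Vamp8 serve fusion in many epithelial and blood cells. Enteroendocrine cells release peptide hormones from dense-core granules by this pathway.

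Depth ranged from 2279595 to 5722381 counts. Mitochondrial rRNA (mt-Rnr1 with mt-Rnr2) took 27.5% to 33.9% of the counts in 5 NeuroD1 libraries and is listed at 0 in NeuroD1_negative_6360 and in all Glu libraries. The positive sorts held endocrine RNA. The summed level of 8 endocrine markers was 39955 to 58608 CPM in NeuroD1 positive and 1912 to 2261 CPM in NeuroD1 negative libraries, and 9007 to 26429 CPM in Glu positive against 898 to 1088 CPM in Glu negative libraries. CPM are counts per 1000000 of a library's TMM-scaled size. Chgb made up most of each sum, at 34406 to 52620 CPM in NeuroD1 positive and 6019 to 22293 CPM in Glu positive libraries. Between the positive sorts 2 of the 8 markers, Chga and Chgb, were higher in NeuroD1 positive cells and 0 were lower. Markers of several other cell types were lower in the positive sorts. In NeuroD1 positive cells all 5 goblet, all 5 Paneth, all 5 B and plasma cell and 5 of 6 enterocyte markers fell. So did 4 of 5 myeloid, 4 of 5 stroma and 2 of 5 tuft cell markers, and 0 of 3 endothelial markers. In the Glu strain 4 of 5 myeloid, 3 of 6 enterocyte and 2 of 5 B and plasma cell markers fell. So did 1 of 5 goblet and 1 of 5 tuft cell markers, while the enterocyte marker Sis rose. Of the Paneth, stroma and endothelial markers 0 of 5, 0 of 5 and 0 of 3 passed in the Glu strain. Their median log2 fold changes there were -1.38, -1.12 and -1.10. All 6 T and NK cell markers fell in NeuroD1 positive cells, with sums of 13.7 to 60.0 CPM in NeuroD1 positive and 323 to 424 CPM in NeuroD1 negative libraries. In the Glu strain 3 of the 6 fell, with sums of 171 to 693 CPM in Glu positive and 948 to 1085 CPM in Glu negative libraries.

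**Figure D1:**
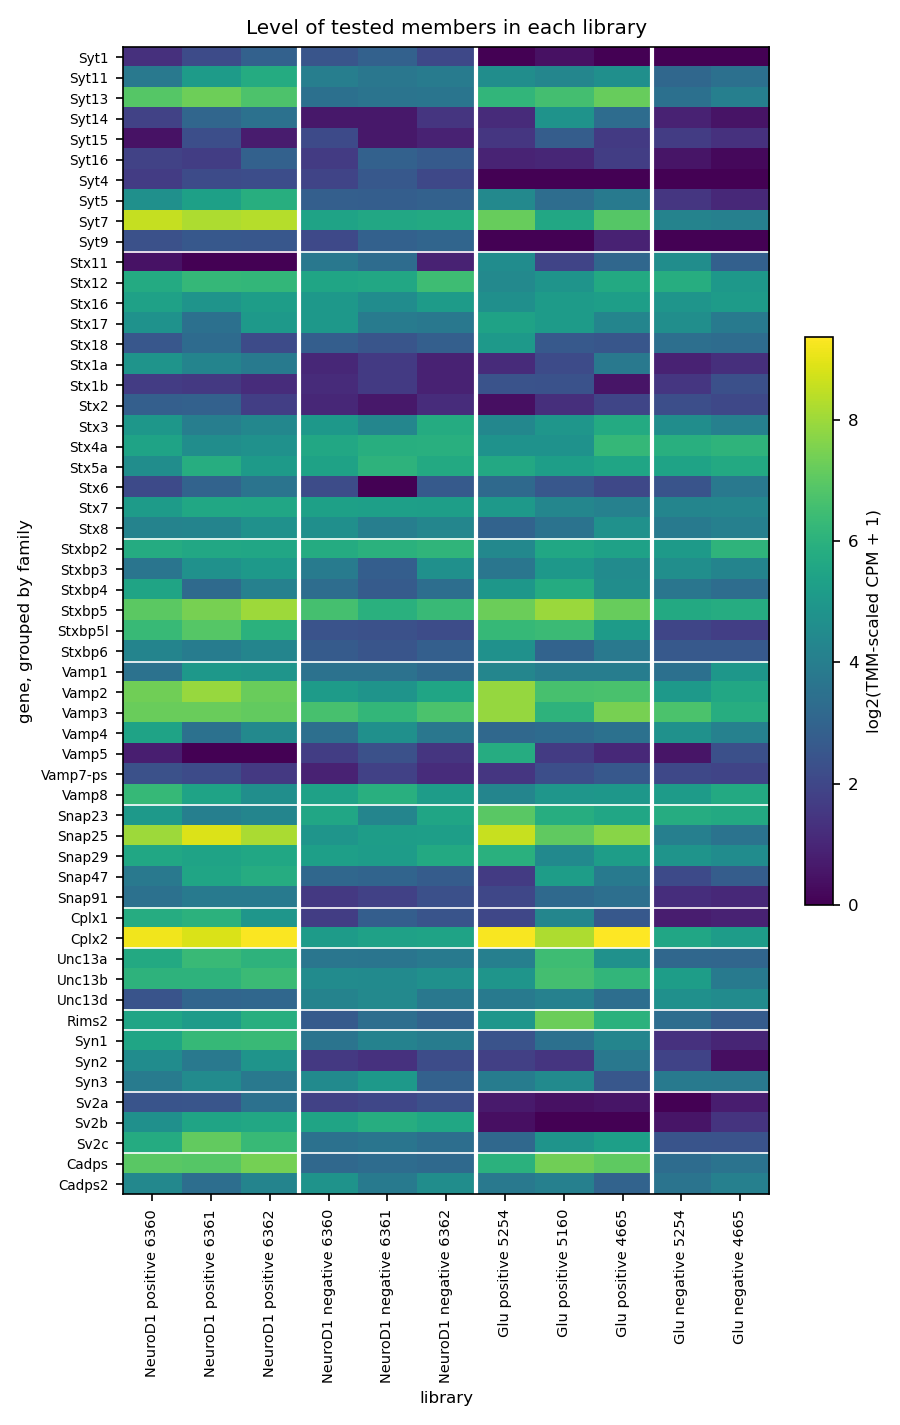
Level of tested members in each of the 11 libraries, as log2(TMM-scaled CPM + 1), with genes in rows grouped by family and libraries in columns grouped by sort. Cplx2, Snap25 and Cadps are brighter in every positive library than in every negative library, while Sv2b, Syt4 and Syt9 follow the strain.

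Reporter-positive cells of both strains had more RNA of the release machinery known from neurons. Of 57 members with enough counts to be tested, 19 (33.3%) were higher and 1 (1.75%) was lower in NeuroD1 positive than in NeuroD1 negative cells, where 6.57% of all 14332 tested genes were higher and 7.61% lower (edgeR quasi-likelihood test, Benjamini-Hochberg adjusted p under 0.05 over all tested genes). In the Glu strain 16 members (28.1%) were higher and 0 lower in positive than in negative cells, where 4.22% of all tested genes were higher and 2.41% lower. For lower members in that strain, 1 had an unadjusted p under 0.05, DESeq2 called 1 and limma voom called 0. For higher members DESeq2 called 17 and limma voom called 11, without Cplx1, Syn1, Sv2c, Syt14 and Unc13a. The median log2 fold change of the tested members was 1.01 in the NeuroD1 strain and 0.99 in the Glu strain, and that of all tested genes was 0.02 and 0.12. In bulk RNA of sorted cells, more cells of a type and more RNA per cell cannot be told apart.

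The calls of the 2 strains overlapped in 15 members, which were 78.9% of those higher in the NeuroD1 strain and 93.8% of those higher in the Glu strain. Over all tested genes 405 were higher in both, 43.0% of the 941 higher in the NeuroD1 strain and 66.9% of the 605 higher in the Glu strain. Among them were Syt5, Syt7, Syt13, Stxbp5, Stxbp5l, Vamp2, Snap25, Cplx1, Cplx2, Unc13a, Rims2, Syn1, Sv2c and Cadps. The groups did not overlap, with every positive above every negative library, for 26 members in the NeuroD1 strain (background 18.3%) and for 21 in the Glu strain (background 15.8%). The opposite order was found for 4 members (background 17.2%) and 5 members (background 16.5%). When 1 library was left out, the number of higher members in the NeuroD1 comparison was 15 to 17. The Glu comparison has 2 negative libraries and rests on both: 5 members were higher without Glu_negative_4665 and 8 without Glu_negative_5254, in fits that take the lone negative library to vary like the other groups. Syt13, Stxbp5l, Snap25, Cplx2 and Cadps passed in each of those fits and under every other alternative run for that comparison.

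**Figure D2:**
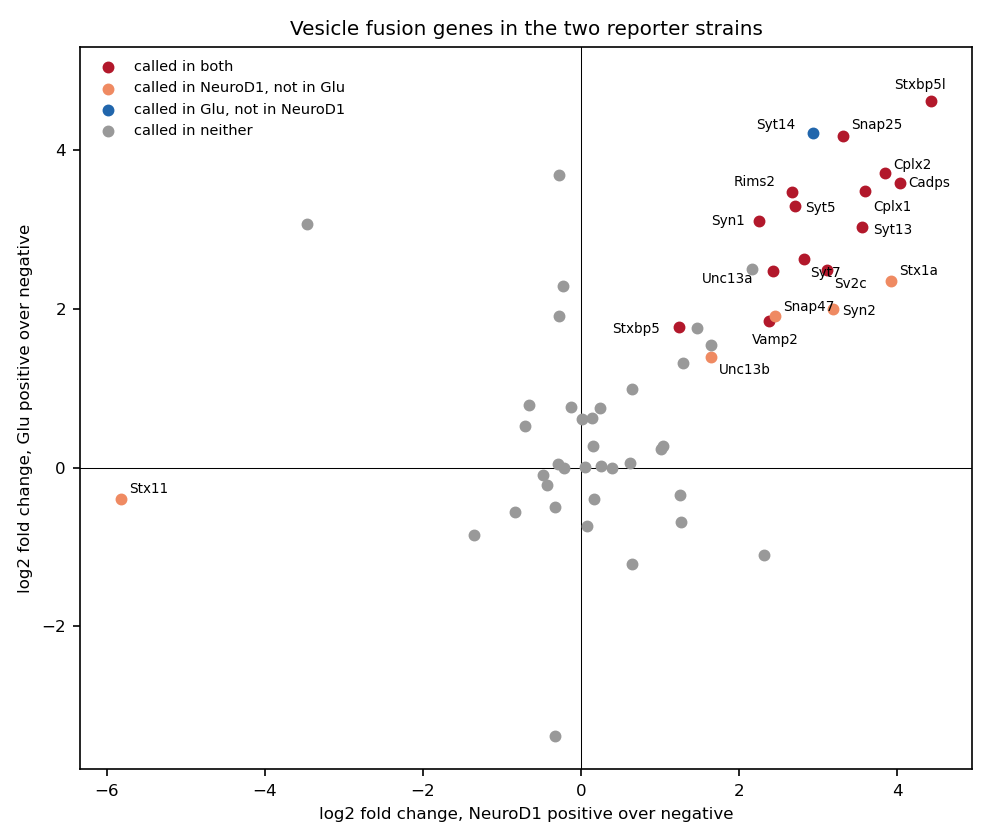
Log2 fold change of tested members, NeuroD1 positive over NeuroD1 negative on the horizontal axis and Glu positive over Glu negative on the vertical axis, coloured by the strain in which the adjusted p was under 0.05. Members called in both strains lie in the upper right, from Stxbp5 (1.24 and 1.77) to Stxbp5l (4.43 and 4.62), and the Glu fold changes of Syt1, Syt4, Syt9 and Sv2b rest on very few counts.

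Among the SNAREs of the target membrane, Snap25 stood out. Snap25, on chromosome 2 from 136713453 to 136782428 (GRCm38, plus strand), encodes the neuronal SNAP that bridges syntaxin and VAMP and is the target of several botulinum toxins. Its level was 254, 469 and 288 CPM in NeuroD1 positive libraries, against 28.4, 36.1 and 37.5 CPM in NeuroD1 negative libraries. It was 380, 136 and 208 CPM in Glu positive libraries, against 15.7 and 10.9 CPM in Glu negative libraries. Neither pair of groups overlapped. Snap25 rose by 3.31 ± 0.41 on the log2 scale in the NeuroD1 strain (adjusted p = 2.8e-05, edgeR) and by 4.18 ± 0.51 in the Glu strain (adjusted p = 9.0e-05, edgeR), where ± is the standard error. Snap47, a relative of Snap25 without a membrane anchor, was at 12.9, 44.6 and 55.3 CPM in NeuroD1 positive and 7.75, 7.03 and 5.68 CPM in NeuroD1 negative libraries and rose by 2.45 ± 0.78 (adjusted p = 0.0407, edgeR). That call was lost in 5 of the 6 fits without 1 library, all but the one without NeuroD1_positive_6360, with adjusted p up to 0.151. Snap47 was also not called with limma voom or with scaling by upper quartile factors or library totals. Its exons share 307 bases with the opposite-strand gene Jmjd4, and the use of strand in counting is not given in the sources used here. Snap23, the widely expressed relative, had a log2 fold change of -0.71 ± 0.48 in the NeuroD1 strain and 0.52 ± 0.54 in the Glu strain, and neither passed. Its level was 32.7, 15.6 and 18.2 CPM in NeuroD1 positive and 45.6, 18.1 and 44.5 CPM in NeuroD1 negative libraries. Snap29, which acts in endosomes and autophagosomes, did not pass either, with 0.14 and 0.63.

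Of 14 tested syntaxins, 1 was higher (7.14%, background 6.57%) and 1 lower (7.14%, background 7.61%) in NeuroD1 positive cells, shares near those of all tested genes, and 0 were called in the Glu strain. The member that rose was Stx1a, the neuronal syntaxin that pairs with Snap25. It was at 27.9, 17.9 and 13.1 CPM in NeuroD1 positive libraries, against 1.06, 2.01 and 0.873 CPM in NeuroD1 negative libraries. The groups were far apart, and Stx1a rose by 3.92 ± 0.90 on the log2 scale (adjusted p = 0.00584, edgeR). In Glu positive libraries it was at 1.21, 3.44 and 13.0 CPM, against 0.884 and 1.40 CPM in Glu negative libraries. Those groups overlapped, since Glu_positive_5254 lay below 1 negative library, and the log2 fold change of 2.35 ± 0.96 did not pass (adjusted p = 0.150, edgeR). The difference between the strains in this change was itself tested and is given further on with the interaction. Stx12, an endosomal syntaxin with the highest mean CPM of the family over the 11 libraries, though not within either Glu group, had log2 fold changes of 0.16 in the NeuroD1 strain and -0.40 in the Glu strain. Stx4a, the gene of the plasma membrane syntaxin Stx4, had -0.84 and -0.56, and Stx3, the apical syntaxin of epithelia, had -0.66 and 0.79, and none of these passed.

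Stx11 was the member that fell. It encodes a syntaxin of immune cells that, with Stxbp2 and Unc13d, serves release of cytotoxic granules in lymphocytes. Stx11 was at 0.367, 0 and 0 CPM in NeuroD1 positive libraries, against 12.3, 9.04 and 0.873 CPM in NeuroD1 negative libraries. That is 1 count against 90, a ratio of 0.0110 with an exact 95% interval of 0.000275 to 0.0628 that covers counting error only (adjusted p = 0.00726, edgeR). limma voom did not call it. Among Glu libraries Stx11 was at 22.8, 2.76 and 7.83 CPM in positive libraries and 23.0 and 6.30 CPM in negative libraries, and these groups overlapped. The T and NK cell markers given above fell with Stx11 in the NeuroD1 strain, as did most markers of several other cell types. The part of these markers' cells in this result was not tested.

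Of the 7 tested members of the Vamp family, the pseudogene Vamp7-ps among them, Vamp2 was the member that passed with edgeR, in both strains. Vamp2, or synaptobrevin, is the VAMP of synaptic vesicles and of many hormone granules. It was at 163, 241 and 149 CPM in NeuroD1 positive libraries, against 34.0, 27.6 and 45.0 CPM in NeuroD1 negative libraries. In the Glu strain it was at 239, 101 and 101 CPM in positive libraries, against 32.9 and 48.7 CPM in negative libraries. Neither pair overlapped. Vamp2 rose by 2.37 ± 0.41 on the log2 scale in the NeuroD1 strain (adjusted p = 5.8e-04, edgeR) and by 1.84 ± 0.46 in the Glu strain (adjusted p = 0.0224, edgeR). The Glu call was lost without Glu_negative_5254 (adjusted p = 0.239, edgeR) and without Glu_negative_4665 (adjusted p = 0.120, edgeR). Vamp3, or cellubrevin, a VAMP of recycling endosomes, had the highest mean CPM of the family over the 11 libraries and did not pass, with log2 fold changes of 0.64 ± 0.40 and 0.99 ± 0.46. Vamp8, a VAMP of endosomes and of exocrine granules, did not pass either, with 0.08 ± 0.46 and -0.74 ± 0.51. It was at 76.0, 42.7 and 23.5 CPM in NeuroD1 positive and 40.4, 59.2 and 34.9 CPM in NeuroD1 negative libraries, and at 18.2, 29.3 and 29.9 CPM in Glu positive and 34.7 and 51.3 CPM in Glu negative libraries.

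The Stxbp genes include Munc18-2 (Stxbp2), a Sec1/Munc18 protein of epithelia and blood cells, and the tomosyns Stxbp5 and Stxbp5l, which carry a VAMP-like helix and restrain SNARE assembly. Both tomosyns were higher in both strains. Stxbp5l, on chromosome 16 from 37114942 to 37384962 (GRCm38, minus strand), had the largest rise of the called members in both comparisons. It was at 77.9, 118 and 61.9 CPM in NeuroD1 positive libraries, against 4.23, 4.02 and 3.49 CPM in NeuroD1 negative libraries. Glu libraries gave the same order. Stxbp5l was at 76.8, 83.7 and 34.6 CPM in positive libraries, against 2.87 and 2.38 CPM in negative libraries. The lowest positive library of each strain was thus far above the highest negative one. Stxbp5l rose by 4.43 ± 0.51 (adjusted p = 1.3e-05, edgeR) and 4.62 ± 0.60 (adjusted p = 1.4e-04, edgeR) on the log2 scale. Stxbp5, with the highest mean CPM of the family over the 11 libraries, was at 128, 173 and 257 CPM in NeuroD1 positive and 95.7, 60.2 and 79.9 CPM in NeuroD1 negative libraries. It was at 152, 246 and 145 CPM in Glu positive and 51.3 and 54.6 CPM in Glu negative libraries. Its rise was 1.24 ± 0.35 and 1.77 ± 0.41. Its NeuroD1 call was lost without NeuroD1_positive_6362, NeuroD1_negative_6361 or NeuroD1_negative_6362 (adjusted p up to 0.145, edgeR), and its Glu call without either Glu negative library (adjusted p up to 0.156, edgeR). Stxbp2 did not pass, with -0.33 ± 0.41 and -0.50 ± 0.45, at 46.4 to 53.6 CPM in NeuroD1 positive and 53.6 to 69.8 CPM in NeuroD1 negative libraries.

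Both complexins rose in both strains with edgeR, and limma voom did not call Cplx1 in the Glu strain. Complexins bind the assembled SNARE bundle and hold it until calcium arrives. Cplx2 had the highest mean CPM of all members in both positive groups, at 570, 464 and 645 CPM in NeuroD1 positive libraries against 34.2, 40.2 and 42.8 CPM in NeuroD1 negative libraries. Among Glu libraries it was at 627, 301 and 664 CPM in positive libraries, against 45.8 and 35.4 CPM in negative libraries. Cplx2 rose by 3.84 ± 0.36 in the NeuroD1 strain (adjusted p = 1.7e-06, edgeR) and 3.71 ± 0.43 in the Glu strain (adjusted p = 6.3e-05, edgeR). Cplx1 was lower in level and more variable. It was at 55.1, 64.9 and 29.2 CPM in NeuroD1 positive and 2.29, 6.02 and 4.37 CPM in NeuroD1 negative libraries, and rose by 3.59 ± 0.72. It was at 3.03, 18.9 and 4.98 CPM in Glu positive and 0.663 and 0.840 CPM in Glu negative libraries, and rose by 3.49 ± 0.89 (adjusted p = 0.0244, edgeR), a call lost without Glu_negative_5254, Glu_negative_4665 or Glu_positive_5160 (adjusted p up to 0.191, edgeR).

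Of 10 tested synaptotagmins, Syt5, Syt7 and Syt13 rose in both strains. Syt7, a slow calcium sensor of high affinity that serves hormone granules, was at 377, 296 and 324 CPM in NeuroD1 positive libraries against 42.3, 47.7 and 51.1 CPM in NeuroD1 negative libraries. Among Glu libraries it was at 145, 48.2 and 117 CPM in positive libraries, against 17.5 and 15.97 CPM in negative libraries. Syt7 rose by 2.82 ± 0.38 in the NeuroD1 strain and 2.63 ± 0.45 in the Glu strain, and the Glu call was lost without Glu_negative_4665 (adjusted p = 0.0536, edgeR). Syt13, an atypical synaptotagmin that does not bind calcium, was at 118, 158 and 106 CPM in NeuroD1 positive libraries, against 10.05, 11.05 and 11.4 CPM in NeuroD1 negative libraries. It was at 71.0, 94.7 and 147 CPM in Glu positive libraries, against 9.95 and 15.5 CPM in Glu negative libraries. Syt13 rose by 3.56 ± 0.41 (adjusted p = 1.6e-05, edgeR) and 3.03 ± 0.47 (adjusted p = 6.2e-04, edgeR). Syt5, a calcium sensor of dense-core vesicles, was at 24.97, 38.9 and 58.5 CPM in NeuroD1 positive and 6.17, 6.02 and 6.55 CPM in NeuroD1 negative libraries, and at 20.3, 9.30 and 13.1 CPM in Glu positive and 1.77 and 1.12 CPM in Glu negative libraries. Syt5 rose by 2.70 ± 0.56 and 3.30 ± 0.70, and its Glu call was lost without either Glu negative library (adjusted p up to 0.149, edgeR). Syt14, which lacks calcium binding sites, passed in the Glu strain at 4.21 ± 1.25 (adjusted p = 0.0495, edgeR) with 1.21, 26.9 and 8.97 CPM in Glu positive and 0.884 and 0.420 CPM in Glu negative libraries. That call was lost without Glu_positive_5160 or either Glu negative library (adjusted p up to 0.330, edgeR). The Glu call of Syt14 was also lost under every other scaling of the libraries and without mt-Rnr1 and mt-Rnr2. It was lost as well with limma voom, with the groups compared alone and with the library number as a block. In the NeuroD1 strain Syt14 was at 2.57, 7.63 and 10.4 CPM in positive and 0.529, 0.502 and 1.75 CPM in negative libraries, and 2.93 ± 1.06 did not pass with edgeR. DESeq2, and edgeR with no filter, called it there. Syt1, the fast calcium sensor of synapses, was at 6.57 CPM or less in every library. Syt2, Syt3, Syt8, Syt12 and Syt17 had too few counts to be tested.

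The priming factors divided by paralog. Cadps (CAPS1), which primes dense-core vesicles, was at 124, 119 and 169 CPM in NeuroD1 positive libraries, against 7.93, 9.04 and 8.29 CPM in NeuroD1 negative libraries. It was at 63.1, 161 and 131 CPM in Glu positive libraries, against 8.84 and 10.8 CPM in Glu negative libraries. Cadps rose by 4.03 ± 0.43 (adjusted p = 5.5e-06, edgeR) and 3.58 ± 0.49 (adjusted p = 1.9e-04, edgeR), while Cadps2 had -0.44 ± 0.55 and -0.22 ± 0.61 and did not pass. Unc13a, or Munc13-1, the main priming factor of synapses, rose by 2.42 ± 0.56 and 2.48 ± 0.66, and limma voom did not call it in the Glu strain. It was at 51.0, 80.9 and 65.9 CPM in NeuroD1 positive and 11.8, 11.5 and 13.5 CPM in NeuroD1 negative libraries, and at 15.5, 87.8 and 25.5 CPM in Glu positive and 7.74 and 7.56 CPM in Glu negative libraries. Its Glu call was lost without Glu_positive_5160 or either Glu negative library (adjusted p up to 0.226, edgeR), and its exons share 495 bases with the opposite-strand gene Colgalt1. Unc13b was at 65.0, 65.6 and 82.6 CPM in NeuroD1 positive and 21.9, 21.6 and 24.9 CPM in NeuroD1 negative libraries and rose by 1.64 ± 0.48 (adjusted p = 0.0261, edgeR), a call lost without any 1 of the 6 NeuroD1 libraries (adjusted p 0.0540 to 0.101, edgeR). Unc13d, or Munc13-4, which primes granules of blood cells, had every positive library below every negative one in both strains. Its log2 fold changes of -1.35 ± 0.54 and -0.85 ± 0.57 did not pass with edgeR, while DESeq2 called it in the NeuroD1 strain. Its range was 4.41 to 7.84 CPM in NeuroD1 positive and 12.7 to 20.1 CPM in NeuroD1 negative libraries. Rims2, a scaffold that tethers vesicles near calcium channels, rose by 2.67 ± 0.57 in the NeuroD1 strain and 3.47 ± 0.67 in the Glu strain, where Glu_positive_5160 held 155 CPM and the other positive libraries 29.7 and 62.8 CPM. The Glu call of Rims2 was lost without Glu_negative_4665 (adjusted p = 0.109, edgeR). Rims3 and Rims4 had 40 and 27 counts in all and were not tested.

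Of the proteins on the vesicle itself, Syn1 and Sv2c rose in both strains with edgeR. In the Glu strain limma voom called neither. Synapsins tether vesicles to each other, and Sv2 proteins are transporter-like proteins of the vesicle membrane. Syn1 was at 44.4, 75.9 and 80.7 CPM in NeuroD1 positive libraries, against 11.1, 17.1 and 14.4 CPM in NeuroD1 negative libraries. Levels in the Glu strain were lower throughout, at 4.25, 9.99 and 18.2 CPM in positive libraries and 1.55 and 0.980 CPM in negative libraries. Syn1 rose by 2.25 ± 0.55 in the NeuroD1 strain, a call lost without NeuroD1_negative_6360 (adjusted p = 0.0575, edgeR), and by 3.11 ± 0.71 in the Glu strain, a call lost without either Glu negative library (adjusted p up to 0.192, edgeR). Syn2 rose by 3.19 ± 0.91 in the NeuroD1 strain, at 22.4, 13.0 and 28.2 CPM in positive and 1.94, 1.51 and 3.49 CPM in negative libraries. Its call was lost in 5 of the 6 fits without 1 library, all but the one without NeuroD1_positive_6361 (adjusted p up to 0.0998, edgeR), and 2.00 ± 1.02 in the Glu strain did not pass. Sv2c was at 53.3, 140 and 79.5 CPM in NeuroD1 positive and 10.2, 11.5 and 9.60 CPM in NeuroD1 negative libraries, and rose by 3.12 ± 0.56. It was at 7.89, 28.2 and 37.9 CPM in Glu positive and 4.42 and 4.34 CPM in Glu negative libraries, and rose by 2.49 ± 0.65, a call lost without Glu_positive_4665 or either Glu negative library (adjusted p up to 0.223, edgeR).

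The other tested members did not pass with edgeR within either strain. DESeq2 called Snap91 in both strains and Sv2b, lower in positive cells, in the Glu strain. Snap91 came closest in the NeuroD1 strain, at 10.3, 13.4 and 13.6 CPM in NeuroD1 positive and 1.94, 2.51 and 3.93 CPM in NeuroD1 negative libraries, with a log2 fold change of 2.16 ± 0.73 (adjusted p = 0.0542, edgeR) and of 2.50 ± 0.86 in the Glu strain. Stxbp6, or amisyn, which carries a VAMP-like helix, had 1.64 ± 0.61 and 1.55 ± 0.69, and Stxbp4 had 1.46 ± 0.61 and 1.75 ± 0.69. Syt11, which does not bind calcium, had 1.29 ± 0.53 and 1.32 ± 0.61. Of the syntaxins of the Golgi and endosomes, Stx5a had -0.48 and -0.10, Stx7 had 0.14 and 0.27, Stx8 had 0.05 and 0.00, and Stx16 had 0.25 and 0.02. Stx6, also of these compartments, averaged 7.13 CPM in NeuroD1 positive and 2.92 CPM in NeuroD1 negative libraries. It averaged 5.38 CPM in Glu positive and 8.58 CPM in Glu negative libraries, and the groups overlapped in both strains. Syn3 had -0.29 and 0.04, and Stxbp3, the Sec1/Munc18 protein Munc18-3 of many tissues, had 0.62 and 0.05.

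The upstream sequences of Syn1 and Stxbp5l are shown. Syn1 was chosen because it holds the only match, among the 49 members with a RefSeq window, to part of the RE1 element. That element is bound by the repressor REST, which silences neuronal genes in other cells. Stxbp5l was chosen because it has the largest rise of the called members in both strains, with no match. Each is the stretch of 250 bases before the RefSeq start (GRCm38.p6), written 5′ to 3′ on the gene's strand. The Syn1 stretch is chrX:20920919-20921168 and the Stxbp5l stretch is chr16:37384959-37385208, both on the minus strand. Capitals mark the RE1 letters TCAGCACC, which begin at position -231 relative to the Syn1 start.
Syn1: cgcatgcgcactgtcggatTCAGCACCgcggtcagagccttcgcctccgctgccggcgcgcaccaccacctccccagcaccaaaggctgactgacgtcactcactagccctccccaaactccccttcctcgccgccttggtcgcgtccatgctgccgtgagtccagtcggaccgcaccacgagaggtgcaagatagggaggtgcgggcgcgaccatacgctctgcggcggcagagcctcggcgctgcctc
Stxbp5l: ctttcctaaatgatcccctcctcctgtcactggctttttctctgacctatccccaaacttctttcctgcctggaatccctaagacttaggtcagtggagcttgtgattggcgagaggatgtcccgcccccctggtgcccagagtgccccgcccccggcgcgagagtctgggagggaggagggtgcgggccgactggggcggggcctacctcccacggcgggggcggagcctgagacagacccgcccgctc
RefSeq windows were matched for 49 of the 65 members. TCAGCACC, searched on both strands, was in 1 of their 62 windows and in 1.32% of all 32851 windows. CAGATG, one form of the E-box that NEUROD1 and related factors bind, was in 6 of the 62 windows (9.68%) and in 14.4% of all windows, and in neither stretch shown. The letters searched do not overlap each other.

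Paralogs of a family were set against each other within each library, as the log2 ratio of their counts, which does not depend on scaling between libraries. The 6 pairs were chosen with earlier results of these data known. Each was tested by an exact two-sided permutation of the positive and negative labels within strains, with 200 arrangements and a smallest possible p of 0.005, and adjusted over the 6 pairs. For Snap25 over Snap23 the log2 ratio was 2.95, 4.89 and 3.97 in NeuroD1 positive libraries, against -0.68, 0.99 and -0.24 in NeuroD1 negative libraries. It was 1.59, 1.25 and 2.18 in Glu positive libraries, against -1.81 and -2.20 in Glu negative libraries. The ratio moved toward Snap25 in positive cells by 3.80 on the log2 scale, averaged over the strains (permutation p = 0.005, adjusted p = 0.0075). Vamp2 over Vamp8 moved by 2.45, Cadps over Cadps2 by 4.08 and Unc13a over Unc13d by 3.35, each with the same exact permutation p of 0.005 and adjusted p of 0.0075. In the 4 pairs with that p every positive library had a higher ratio than every negative library of its strain. Stx1a over Stx3 moved by 2.68 (permutation p = 0.02, adjusted p = 0.024), by 4.33 in the NeuroD1 strain and 1.04 in the Glu strain, where positive and negative libraries overlapped. Cplx2 over Cplx1 did not pass, at 0.46 (exact permutation p = 0.56, adjusted p = 0.56).

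**Figure D3:**
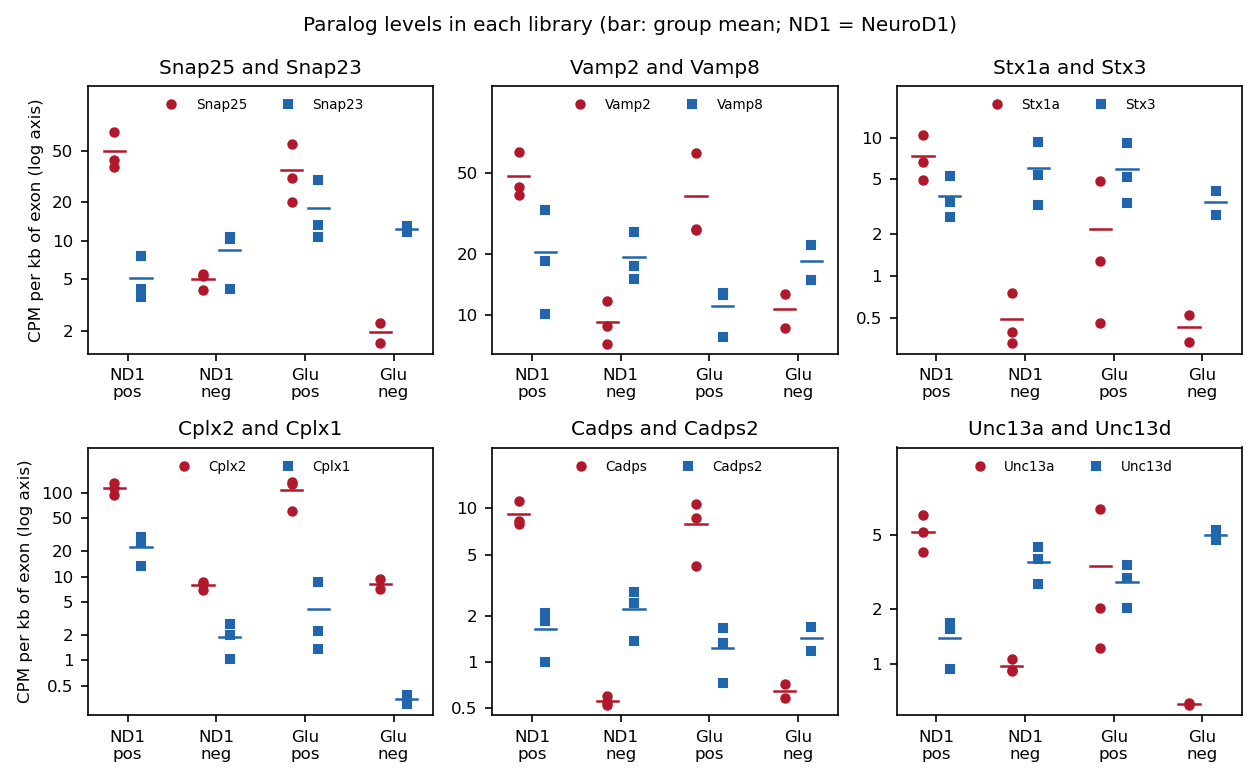
Level of each paralog of the 6 pairs in each library, as CPM per kilobase of exon on a log axis, with a horizontal bar at the group mean. In the panels of Snap25 and Snap23, Vamp2 and Vamp8, Unc13a and Unc13d, and Cadps and Cadps2 the gene with the higher mean differs between positive and negative groups, while Cplx2 is above Cplx1 in all 4 groups.

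Per kilobase of exon, which allows levels of different genes to be compared, the leading member of a family changed with the sort. Snap25 made up 59.4% of the summed level of the Snap family in NeuroD1 positive and 17.7% in NeuroD1 negative cells, and 49.3% in Glu positive against 8.33% in Glu negative cells. Snap29 led in NeuroD1 negative and Snap23 in Glu negative cells. Stxbp2 led its family at 50.4% in NeuroD1 negative and 49.2% in Glu negative cells. The Cadps family showed the same exchange in both strains. The Unc13 family showed it in the NeuroD1 strain, where Unc13a led in positive cells at 53.6%. In Glu positive cells the Unc13 shares lay close together, at 37.7% for Unc13a, 31.4% for Unc13b and 31.0% for Unc13d. Per kilobase, Unc13a was below Unc13d in Glu_positive_5254 (1.23 against 2.92) and near it in Glu_positive_4665 (2.02 against 2.01). Unc13d made up 64.4% of its family in NeuroD1 negative and 74.9% in Glu negative cells, where Unc13a had 17.5% and 9.01%. By group mean, Vamp3 led its family in all 4 groups. Vamp2 came next in both positive groups, at 36.7% in NeuroD1 positive and 31.9% in Glu positive cells, and Vamp8 came next in both negative groups. The lead of Vamp3 did not hold in every library. Vamp2 was above it in NeuroD1_positive_6361 (63.3 against 51.2) and Glu_positive_5160 (26.4 against 22.5). Vamp8 was above it in Glu_negative_4665 (22.2 against 19.6) and level with it in NeuroD1_negative_6361 (25.6 against 25.5). In NeuroD1 positive cells the mean level per kilobase of Vamp3, 50.3, and of Vamp2, 48.4, did not differ beyond the libraries' spread, since Vamp2 ranged from 39.2 to 63.3. Of the synaptotagmins, Syt7 led in both NeuroD1 groups and Syt13 in both Glu groups by mean, though in Glu_positive_5254 Syt7 (19.4) was above Syt13 (18.9). Rims2 and Cplx2 led their families in all 4 groups.

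The positive cells of the strains were also set against each other. NeuroD1 positive cells had 8 members higher (14.0% of those tested, background 3.18%) and 3 lower (5.26%, background 4.95%) than Glu positive cells. The higher members were Syt1, Syt4, Syt7, Cplx1, Syn1, Sv2a, Sv2b and Sv2c. Syt7, whose levels are given above, was higher by 1.68 ± 0.37 on the log2 scale (adjusted p = 0.00829, edgeR), and Syn1 by 2.61 ± 0.55 (adjusted p = 0.00679, edgeR). Both passed in each of the 6 fits without 1 library. Cplx1 was higher by 2.48 ± 0.67 and Sv2c by 1.87 ± 0.53. Calls for those genes were lost in 4 of the 6 fits each, with adjusted p up to 0.104 for Cplx1 (without NeuroD1_positive_6360 or NeuroD1_positive_6361, or Glu_positive_5254 or Glu_positive_4665) and 0.208 for Sv2c (without NeuroD1_positive_6361 or NeuroD1_positive_6362, or Glu_positive_5254 or Glu_positive_5160). Snap25, Stxbp5l, Cplx2, Vamp2 and Cadps did not pass, with log2 fold changes of 0.48, 0.40, 0.08, 0.33 and 0.22.

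The 3 members lower in NeuroD1 positive than in Glu positive cells were Stx11, Vamp5 and Snap23. For Stx11 the groups held 1 count and 138 counts, a ratio of 0.00952 with an exact 95% interval of 0.000239 to 0.0539. Vamp5, a VAMP known mainly from muscle, was at 0.734, 0 and 0 CPM in NeuroD1 positive libraries, against 54.3, 2.07 and 1.14 CPM in Glu positive libraries. The level in Glu_positive_5254 stands apart, and without that library the call was lost (adjusted p = 0.309, edgeR), as it was without NeuroD1_positive_6361 or NeuroD1_positive_6362 (adjusted p up to 0.0871, edgeR). Snap23 was at 32.7, 15.6 and 18.2 CPM in NeuroD1 positive libraries, against 127, 56.8 and 45.9 CPM in Glu positive libraries, lower by 1.78 on the log2 scale with a standard error of 0.49 (log2 fold change -1.78, adjusted p = 0.0305, edgeR). Its call was lost without Glu_positive_5254 or without NeuroD1_positive_6361 or NeuroD1_positive_6362 (adjusted p up to 0.134, edgeR). Cd3e, a T cell gene, was at 544 CPM in Glu_positive_5254 and at 111 and 124 CPM in the other Glu positive libraries. Gzma was also highest in Glu_positive_5254, at 87.7 CPM against 31.0 and 23.9 CPM. Cd3g (20.6 CPM) and Nkg7 (12.1 CPM) were near their levels in Glu_positive_5160 (19.98 and 9.65 CPM). Cd8a (11.2 CPM) and Ccl5 (17.0 CPM) were lower than in Glu_positive_5160 (15.8 and 19.3 CPM). Of the 6 T and NK cell markers, 5 were lower in NeuroD1 positive than in Glu positive cells. So were 5 of 5 goblet cell and 2 of 5 B and plasma cell markers. Their part in these results was not tested.

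Sv2b differed between the strains in both sorts. Sv2b, on chromosome 7 from 75114894 to 75309262 (GRCm38, minus strand), was at 24.97, 43.1 and 47.7 CPM in NeuroD1 positive libraries and at 43.0, 55.7 and 47.1 CPM in NeuroD1 negative libraries, and these groups overlapped. It was at 0.303, 0 and 0 CPM in Glu positive libraries and at 0.442 and 1.68 CPM in Glu negative libraries. Sv2b was thus high in all 6 NeuroD1 libraries and near 0 in all 5 Glu libraries. Between the positive groups this is 406 counts against 1, a ratio of 533 with an exact 95% interval of 95.2 to 21119 for counting error (adjusted p = 8.0e-06, edgeR). Between the negative groups Sv2b was higher by 5.41 ± 0.79 in NeuroD1 cells (adjusted p = 0.00124, edgeR), a call lost without Glu_negative_5254 (adjusted p = 0.0742, edgeR).

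Syt4, an atypical synaptotagmin of dense-core vesicles, was at 2.204, 3.43 and 3.60 CPM in NeuroD1 positive and at 2.82, 5.02 and 3.06 CPM in NeuroD1 negative libraries. It had no count in any Glu library. With the floor of 3 counts over a group, Syt4 was at least 14.0-fold higher in NeuroD1 positive than in Glu positive cells (adjusted p = 0.0119, edgeR), and at least 12.9-fold higher in NeuroD1 negative than in Glu negative cells, which did not pass (adjusted p = 0.102, edgeR). Between the negative groups DESeq2, and edgeR with no filter, called Syt4. Syt1 held 44 counts in NeuroD1 positive and 1 in Glu positive libraries, a ratio of 57.8 (exact 95% interval 9.85 to 2334), and its call was lost without NeuroD1_positive_6362 or Glu_positive_5254 (adjusted p up to 0.0882, edgeR). Sv2a was at 4.41, 4.58 and 10.2 CPM in NeuroD1 positive and 0.607, 0.344 and 0.427 CPM in Glu positive libraries, higher by 3.73 ± 1.03 (adjusted p = 0.0305, edgeR), a call lost in 5 of 6 fits, all but the one without Glu_positive_4665 (adjusted p up to 0.118, edgeR). Syt9, a calcium sensor of dense-core vesicles, held 47 counts in NeuroD1 positive and 6 in Glu positive libraries and just missed the threshold (adjusted p = 0.0540, edgeR). DESeq2, limma voom, and edgeR with no filter called Syt9 in that comparison. Syt8 and Rims4, which were not tested, held 10 and 17 counts in NeuroD1 positive libraries and 0 in Glu positive libraries. Of the 57 tested members 1, Syt4, had no count in any Glu library and at least 1 in every NeuroD1 library (1.75%), as had 39 of all 14332 tested genes (0.272%). Syt8 had the same pattern.

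**Figure D4:**
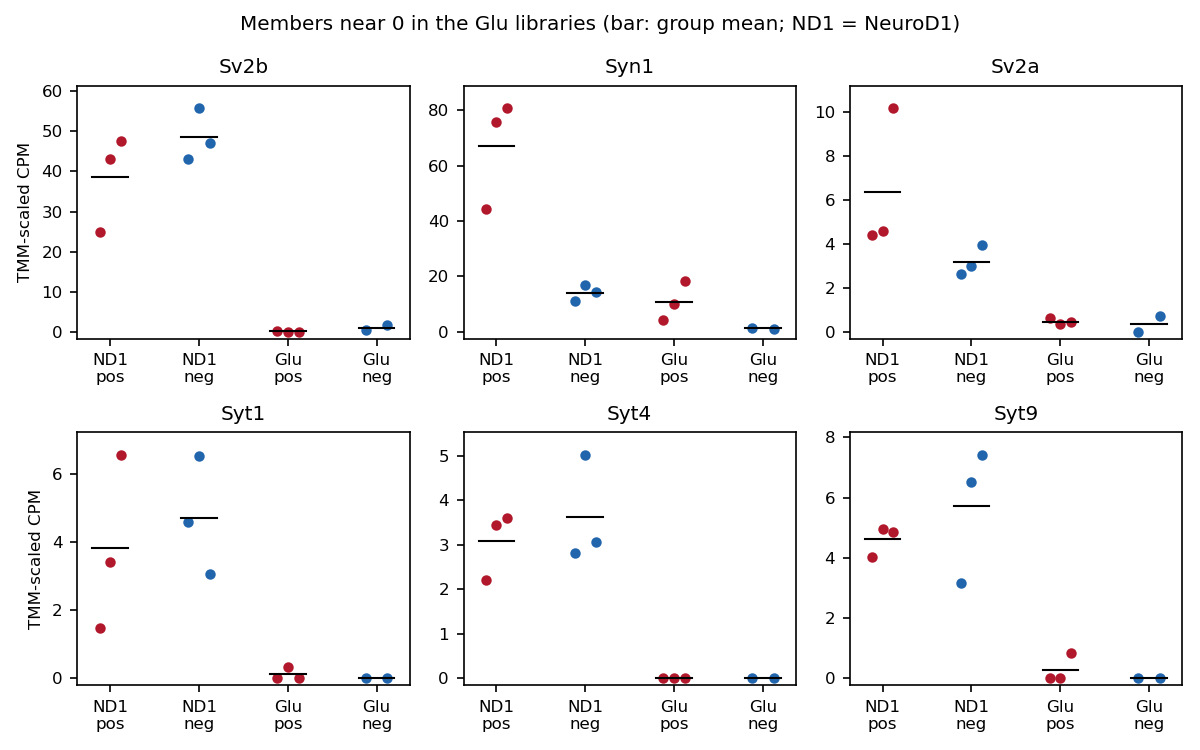
TMM-scaled CPM of 6 members in each library by group, each axis starting at 0, with a bar at the group mean. Sv2b, Syt4, Syt1, Syt9 and Sv2a lie at or near 0 in the Glu libraries of both sorts and above it in the NeuroD1 libraries of both sorts, and Syn1 also differs between the sorts.

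Between the negative cells of the strains 2 members were higher in NeuroD1 negative than in Glu negative cells (3.51%, background 0.363%) and 0 were lower (background 0.126%). With an unadjusted p under 0.05, 12 members were higher and 0 lower, DESeq2 called 5 and 0, and limma voom called 2 and 0. The members called with edgeR were Sv2b and Syn1. DESeq2 called these and Syt1, Syt4 and Syt9, and limma voom called Sv2b and Syt9. Syn1 was higher by 3.48 ± 0.72 on the log2 scale (adjusted p = 0.0312, edgeR), and the call was lost in each of the 5 fits without 1 library (adjusted p 0.0543 to 0.545, edgeR). Every NeuroD1 negative library lay above every Glu negative library for 20 members (background 15.3%), and below it for 6 (background 16.5%). NeuroD1_negative_6360, which like the Glu libraries has mt-Rnr1 and mt-Rnr2 at 0, held Sv2b at 43.0, Syt4 at 2.82 and Syn1 at 11.1 CPM, beside 47.1 to 55.7, 3.06 to 5.02 and 14.4 to 17.1 CPM in the other NeuroD1 negative libraries. Strain, reporter and any difference in when or how the libraries were made cannot be told apart in this design.

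The interaction asks whether the positive to negative change differs between the strains. No member passed: 0 had a larger change in the NeuroD1 strain (background 0.0907%) and 0 a smaller one (background 0.0209%). With an unadjusted p under 0.05, 3 members had a larger change and 2 a smaller one, and DESeq2 and limma voom called 0. The 5 were Stx2, Vamp4 and Sv2b, and Stx11 and Vamp5, with adjusted p from 0.270 to 0.451 (edgeR). Among the members called in 1 strain and not in the other, Stx1a had an interaction of 1.57 ± 1.26, Snap47 of 0.54 ± 1.12, Unc13b of 0.25 ± 0.70, Syn2 of 1.19 ± 1.32 and Syt14 of -1.29 ± 1.55 on the log2 scale, and none of these passed.

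Other genes of vesicle release were counted from a list of 62 genes, of which 51 were tested. In NeuroD1 positive cells 8 were higher (15.7%, background 6.57%) and 1 lower (1.96%, background 7.61%). In Glu positive cells 5 were higher (9.8%, background 4.22%) and 0 lower (background 2.41%). Rab3 proteins are GTPases of secretory granules. Of the 12 tested Rab3 and Rab27 genes and effectors, 5 were higher in the NeuroD1 strain and 2 in the Glu strain, and Rab3a was called in neither. Rab3c rose by 4.32 ± 0.59 in the NeuroD1 strain and by 3.89 ± 0.70 in the Glu strain, a call lost without Glu_negative_5254 (adjusted p = 0.0630, edgeR), and Rab3b and Rab3d rose by 3.76 ± 0.74 and 2.09 ± 0.42 in the NeuroD1 strain. Of their effectors, Rph3al (3.04 ± 0.45 in the NeuroD1 strain) and Sytl5 (2.79 ± 0.76 and 3.41 ± 0.89) rose, and Sytl3 fell in the NeuroD1 strain, at a log2 fold change of -5.75 ± 1.27. The calls of Sytl5 were lost without NeuroD1_positive_6362, NeuroD1_negative_6360 or NeuroD1_negative_6361 (adjusted p up to 0.114, edgeR) and without either Glu negative library (adjusted p up to 0.247, edgeR). The active zone scaffolds Pclo (3.61 ± 0.33 and 3.72 ± 0.39) and Rimbp2 (3.86 ± 0.50 and 2.71 ± 0.54) and the vesicle protein synaptophysin, Syp (3.49 ± 0.44 and 2.34 ± 0.49), rose in both strains. The Glu calls of Rimbp2 and Syp were lost without either Glu negative library (adjusted p up to 0.0958 and 0.148, edgeR). None of the 12 other SNAREs, 4 genes of SNARE disassembly or 9 exocyst genes on the list passed within either strain, and their median log2 fold changes lay between -0.06 and 0.30. With backgrounds of 6.57% and 4.22% higher, lists this small would show few or no calls, so 0 does not set them apart from all tested genes.

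RNA of enteric neurons carries many of the same genes. Of 6 enteric neuron markers, Hand2 was at 0 in all libraries. The sum of the 6 was 144 to 251 CPM in NeuroD1 positive and 73.1 to 92.1 CPM in NeuroD1 negative libraries, and 94.96 to 121 CPM in Glu positive and 24.9 to 29.4 CPM in Glu negative libraries, most of it Ret and Nefl. Of 4 enteric glia markers the sum was at most 11.2 CPM in any library. Genes of the 11 families were left out of a search for the tested genes whose level followed Snap25 most closely over the 11 libraries. By Pearson's r of log2(CPM + 1), the closest of the others were Neurod1 (0.990), Unc80 (0.986), Isl1 (0.982), Camk2b (0.982) and Ncam2 (0.981). The 11 points fall into 4 groups of 2 strains, and no test was made of these values.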

How the data were processed

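Per the submitters' processing notes, the authors used CASAVA, TopHat2 2.1.0 and Cufflinks 2.2.1 with the mouse build GRCm38. Which gene models were counted, and whether strand was used, is not given in the sources used here. Values deposited by the authors are estimated counts per gene for 11 libraries, and 848 genes hold values that are not whole. These were rounded to whole numbers. Per the labels' protocols, 2 ng of RNA with an integrity number above 7 was amplified with the Ovation RNAseq system v2 kit. Symbols, positions and exon lengths came from GENCODE M21 (GRCm38), which matched 36425 of the 38283 genes.

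A quasi-likelihood model of edgeR 4.0.16 (R 4.3.3) was fitted to all 11 libraries, with 4 group means, TMM factors and edgeR's expression filter, which left 14332 genes. A total of 5 contrasts were tested (Benjamini-Hochberg adjusted p under 0.05), and the standard error is the log2 fold change divided by the square root of F. The fit was tested on simulated counts. Paralog ratios used counts plus 0.5. Alternatives were other scalings and filters, DESeq2 1.42.0, limma 3.58.1 voom, groups compared alone, the library number as a replicate block, and fits without 1 library at a time. Removing mt-Rnr1 with mt-Rnr2 before scaling was added after seeing the data. Library totals of 2279595 to 5722381 counts limit genes with few counts, and intervals (exact, 95%) and floors (3 counts over a group) cover counting error only. Replicate libraries differed by more than sampling noise.

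The members, pairs and gene lists were chosen with earlier results of these data known. Test values are named for called members and for the most abundant member of each family, and Snap91, Stxbp4, Stxbp6, Syt11, Syn3 and the other members that missed the threshold were named after their values were seen. Some items, among them a member, a paralog pair and a marker, are not reported here.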

Additional observations from a re-analysis of the deposited data

Results flagged for a closer look

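Stx2, or epimorphin, a plasma membrane syntaxin, had positive libraries above negative ones in the NeuroD1 strain and below them in the Glu strain, and passed in neither. It averaged 5.02 CPM in NeuroD1 positive libraries, where each of the 3 (6.24, 6.49 and 2.33 CPM) lay above each NeuroD1 negative library (1.06, 0.502 and 1.31 CPM). Each Glu positive library (0.303, 1.38 and 2.85 CPM) lay below each Glu negative library (3.76 and 3.08 CPM). The log2 fold change was 2.31 ± 0.98 in the NeuroD1 strain and -1.10 ± 0.98 in the Glu strain. The difference of 3.41 ± 1.38 had an unadjusted p of 0.0230 and did not pass after adjustment over all tested genes (adjusted p = 0.374, edgeR).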

How the results depend on the processing

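For members lower in NeuroD1 positive cells (main count 1), the count was 2 with no filter, 2 with DESeq2, 0 with limma voom and 0 with the groups compared alone. For members higher in Glu positive cells (16) it was 8 with the groups compared alone and 5 to 19 with 1 library left out, and for lower ones (0) it was 1 with upper quartile factors, library totals, no filter, the strict filter of at least 50 counts in 2 libraries or DESeq2, and 0 to 1 with 1 library left out. Of the 16 members higher in Glu positive cells, 11 kept their call with limma voom and 11 with library totals. For members higher in NeuroD1 positive than in Glu positive cells (8) it was 5 under the strict filter, 4 with the groups alone and 4 to 11 with 1 library left out. For lower ones (3) it was 0 with limma voom, 1 with the groups alone and 1 to 3 with 1 library left out. For members higher in NeuroD1 negative than in Glu negative cells (2) it was 1 with library totals, 5 with no filter, 5 with DESeq2, 4 with the groups alone and 0 to 1 with 1 library left out. The interaction gave 2 smaller changes with no filter, Stx11 and Vamp5. With library totals the median over all tested genes became -0.28 in the NeuroD1 strain, -0.19 in the Glu strain, -0.51 between positives and -0.39 between negatives, against 0.02, 0.12, -0.14 and -0.01.

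Log2 fold changes turned round only for members that had not passed. Stx12 in the NeuroD1 strain was at -0.0808 with library totals and ranged from -0.023 (without NeuroD1_negative_6360) to 0.53 with 1 library left out. In the Glu strain Stx12 ranged from -0.86 to 0.14 (without Glu_negative_5254). Stx11 in the Glu strain was at 0.15 with the replicate block, and ranged from -1.42 to 0.81 (without Glu_negative_5254), with 0.062 without Glu_positive_5160. The cause was not tested.

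Positive and negative libraries of the same number were weakly correlated in their deviations from the group means. The correlation was 0.0459, 0.0104 and 0.0098 in the NeuroD1 strain and 0.0404 and 0.0415 in the Glu strain. Libraries of different numbers gave -0.0334 to 0.0201 and -0.0415 to 0.0034. The deviations of the 2 Glu negative libraries mirror each other by construction. These values cannot decide whether a number marks an animal. With the replicate block 0 of 20 calls were lost in the NeuroD1 strain and 5 of 16 in the Glu strain (Cplx1, Stxbp5, Sv2c, Syt14 and Unc13a). Over 5 pairs the smallest exact permutation p is 0.0625, so no paralog ratio could pass with the block, where the change was 3.91 for Snap25 over Snap23, 2.57 for Vamp2 over Vamp8, 3.03 for Stx1a over Stx3, 4.14 for Cadps over Cadps2 and 3.21 for Unc13a over Unc13d. With 1 library left out these ratios changed by 3.56 to 4.05, 2.12 to 2.69, 2.40 to 3.04, 3.85 to 4.33 and 3.08 to 3.64, in the same order. Members with few counts, such as Syt4, are limited by depth.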
